A study of Mus musculus with 42 samples.

Results

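The salt-inducible kinases (*Sik1*, *Sik2* and *Sik3*), the CREB factors *Creb1* and *Crem*, the CREB coactivator *Crtc2*, the phosphatase *Dusp1* and the cAMP phosphodiesterases *Pde3b*, *Pde4b* and *Pde4d* are 10 of the 18193 genes that the array annotation names alone on at least 1 probe set. All 31 probe sets annotated to 1 of these genes alone were taken, and no probe set named a member together with another gene. The genes were chosen from their mean level in each tissue and from their difference between groups in the same arrays, so both are given as a description, without a test. Groups of 7 mice were compared in 3 tissues: male ddY mice (5 weeks old, then acclimated for 1 week) received VAAM, a 1.8% amino acid mixture that simulates the larval saliva of *Vespa* hornets, or water, by feeding tube on 5 days at 37.5 μL per g of body weight. Both groups ate freely until food was taken away 2 h before the last dose, and all mice were killed 4 h after that dose. Total RNA of the liver and of white (WAT) and brown (BAT) adipose tissue was measured on 42 Affymetrix mouse arrays, 7 per group and tissue, and the WAT depot is not named in the sources used here.

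Cyclic AMP, made by adenylyl cyclases when hormones such as glucagon or noradrenaline bind their receptors, activates protein kinase A (PKA). PKA phosphorylates CREB, and it also phosphorylates the salt-inducible kinases, which then no longer hold the CRTC coactivators in the cytoplasm, so that CRTC proteins enter the nucleus and join CREB at cAMP response elements. Several CREB targets feed back on the signal: *Sik1* restrains the CRTC proteins, *Crem* gives the repressor ICER from an internal promoter, and phosphodiesterases of the PDE4 family degrade cAMP. In liver this loop is known for gluconeogenesis in fasting, in WAT for lipolysis and in BAT for thermogenesis.

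The full cAMP response element is TGACGTCA, and TGACG, read on either strand, is its half-site, which lies within the full element. Promoter windows of 300 bases, from 250 bases before to 50 bases after the transcription start, were at hand for 6 of the 10 genes (RefSeq, GRCm38.p6; several windows for *Pde4b*). A full element was found in the window of *Dusp1* alone, and 1.79% of all 32851 windows of this length hold one. Half-sites were found in the windows of *Dusp1*, *Sik2* and *Sik3* and in 1 of 4 *Pde4b* windows, and 20.8% of all windows hold one. The 3 windows with more than 1 match are shown because they belong to genes whose levels are compared below, with both motifs in capitals.
Dusp1: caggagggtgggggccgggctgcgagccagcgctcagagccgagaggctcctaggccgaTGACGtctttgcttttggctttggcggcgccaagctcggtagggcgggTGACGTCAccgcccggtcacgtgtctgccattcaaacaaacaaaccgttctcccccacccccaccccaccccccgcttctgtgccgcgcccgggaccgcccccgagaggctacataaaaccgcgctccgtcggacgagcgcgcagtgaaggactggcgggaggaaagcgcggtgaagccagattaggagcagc
Sik2: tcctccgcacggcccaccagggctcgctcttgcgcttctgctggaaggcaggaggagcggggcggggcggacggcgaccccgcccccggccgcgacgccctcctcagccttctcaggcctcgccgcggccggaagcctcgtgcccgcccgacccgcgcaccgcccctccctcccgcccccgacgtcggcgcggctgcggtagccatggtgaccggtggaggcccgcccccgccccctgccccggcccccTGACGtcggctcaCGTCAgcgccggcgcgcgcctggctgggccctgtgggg
Sik3: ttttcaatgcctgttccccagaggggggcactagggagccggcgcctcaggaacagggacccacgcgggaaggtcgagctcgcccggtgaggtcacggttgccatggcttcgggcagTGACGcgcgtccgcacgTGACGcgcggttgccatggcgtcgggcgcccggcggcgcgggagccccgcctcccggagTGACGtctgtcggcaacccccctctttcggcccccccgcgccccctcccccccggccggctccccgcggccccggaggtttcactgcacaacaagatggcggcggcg
The *Dusp1* window is chr17:26508423-26508722 on the minus strand, and its full element starts 143 bases before the transcription start, with a half-site 191 bases before it. The *Sik3* window is chr9:46012570-46012869 on the plus strand and holds 3 half-sites, at 133, 116 and 57 bases before the start. Of all windows, 1.03% hold 3 or more, counting also the half-sites within a full element. Counted that way the *Dusp1* window holds 3 as well, 2 on 1 strand and 1 on the other. The *Sik2* window is chr9:51009024-51009323 on the minus strand, with 1 half-site whose first base is 1 base before the start and 1 on the other strand that begins 13 bases after it. These matches are a description of the letters in these windows.

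The deposited values are per-probe-set levels on a log scale (taken as log2, since the base is not stated) made with the distribution free weighted method (DFW), which shrinks the deviations between arrays. The median SD over the 14 arrays of a tissue was 1.08e-05 in liver, 1.41e-05 in WAT and 1.06e-05 in BAT. Differences (VAAM minus water) are therefore given in units of the pooled SD within groups, ± the standard error (SE, n = 7 each), and they are not fold changes: the *Dusp1* means in liver, 8.53 in VAAM mice and 8.51 in water mice (log2 level), lie 1.63 SD apart. Values of single mice are given in the same unit, as the distance from the mean of the water mice. A gene is represented by its brightest probe set in that tissue unless a probe set is named. Of the listed cell type markers, *Alb*, *Ucp1* and *Adipoq* matched the tissue labels. They averaged 15.00, 6.39 and 5.89 in liver, 7.04, 6.36 and 14.39 in WAT, and 6.57, 14.22 and 14.04 in BAT (log2 level). Not every listed marker did so: the brown adipocyte marker *Elovl3* averaged 9.51 in liver and 8.53 in BAT. The hepatocyte marker *Cyp2e1* averaged 14.44 in liver but also 13.78 in WAT. Markers of epididymis, of which 7 of 8 were measured, varied strongly in WAT: their summed level was 54.6 to 94.5 in VAAM arrays and 49.99 to 85.1 in water arrays, and it was highest in the arrays numbered 1 of each group. Skeletal muscle markers (8 of 8 measured) did so in BAT, at 53.8 to 88.0 in VAAM arrays and 54.9 to 90.1 in water arrays. In bulk RNA, fewer cells of a type and less RNA per cell cannot be told apart.

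*Sik1*, the salt-inducible kinase that is itself induced by cAMP, was higher in the VAAM mice in all 3 tissues in the deposited values, and in liver and BAT but not WAT after quantile normalization. In liver its values (probe set 1419766_at) were -0.497, 1.75 and 2.73 SD in the VAAM mice, against -0.882, -0.107 and 0.892 SD in the water mice (lowest, median and highest of 7). In WAT they were 0.845, 1.68 and 2.38 SD in the VAAM mice, against -1.36, -0.245 and 1.84 SD in the water mice. In BAT they were 0.0325, 1.85 and 3.11 SD in the VAAM mice, against -0.983, -0.269 and 1.92 SD in the water mice. The VAAM mice above the water median numbered 6 of 7 in liver and 7 of 7 in both WAT and BAT, and the ranges of the groups overlapped in each tissue. The difference came to 1.61 ± 0.615 SD in liver, 1.64 ± 0.618 SD in WAT and 1.69 ± 0.623 SD in BAT. It kept its sign when any 1 array was left out. After quantile normalization of the arrays it was 1.59 SD in liver and 1.53 SD in BAT but -0.213 SD in WAT, where that step put 43134 of 45037 probe sets lower in the VAAM mice and the median gene at -0.473 SD. Without both WAT arrays numbered 1 it was 1.51 ± 0.655 SD.

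The second *Sik1* probe set, 1459601_at, had r = 0.66 with the first in WAT between mice with group means removed, -0.03 in liver and -0.17 in BAT. Its difference was 0.981 ± 0.566 SD in liver and 1.64 ± 0.617 SD in WAT, and every VAAM mouse exceeded the water median in both. The liver values of 1459601_at were 0.342, 0.618 and 2.23 SD in the VAAM mice, against -1.62, 0.0548 and 2.33 SD in the water mice. In BAT its difference was -0.624 ± 0.547 SD, and 0 of 7 exceeded it. The BAT values of 1459601_at were -1.01, -0.646 and -0.290 SD in the VAAM mice, against -1.71, 0.132 and 1.84 SD in the water mice. The 2 probe sets therefore point in opposite directions in BAT.

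*Sik2*, which is abundant in adipose tissue, and *Sik3*, which like it phosphorylates CRTC proteins and class IIa histone deacetylases, differed less, and not in the same direction on every probe set. *Sik2* differed by -0.338 ± 0.538 SD in liver, -0.408 ± 0.540 SD in WAT and -0.501 ± 0.543 SD in BAT. In WAT its values were -3.07, 0.0108 and 0.745 SD in the VAAM mice, against -1.11, 0.267 and 0.715 SD in the water mice. The VAAM array numbered 1 was at -3.07 SD, far under the other VAAM mice, whose group had its median at 0.0108 SD, and without that array the difference was 0.0615 ± 0.557 SD. The other 2 *Sik2* probe sets had differences of -0.861 ± 0.559 SD and 0.235 ± 0.536 SD in liver, -0.198 ± 0.536 SD and -0.293 ± 0.537 SD in WAT and 0.670 ± 0.549 SD and 0.0477 ± 0.535 SD in BAT. The 3 probe sets followed each other between mice in WAT (r from 0.87 to 0.96) and less so in liver (-0.11 to 0.13) and BAT (-0.07 to 0.81). *Sik3* differed by -0.527 ± 0.544 SD in liver, -0.0531 ± 0.535 SD in WAT and 0.0620 ± 0.535 SD in BAT. Its probe set 1446136_at was lower in the VAAM mice in every tissue, with -1.56 ± 0.611 SD, -0.648 ± 0.548 SD and -0.813 ± 0.556 SD in liver, WAT and BAT. In liver the values of 1446136_at were -3.01, -1.38 and -0.278 SD in the VAAM mice, against -1.26, 0.267 and 0.937 SD in the water mice, and no VAAM mouse was above the water median. The *Sik3* probe set with the highest level in liver, 1455437_at, had 3 of 7 VAAM mice above that median.

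Of the CREB factors, *Crem*, which gives both activators and the repressor ICER, was higher in the VAAM mice on 3 of its 4 probe sets in liver, 4 in WAT and 3 in BAT in the deposited values, while quantile normalization turned the difference of its brightest probe set negative in all 3. In liver 1449037_at was at -0.248, 1.04 and 3.22 SD in the VAAM mice, against -0.825, 0.0863 and 0.693 SD in the water mice. In WAT it was at -1.50, 1.08 and 1.96 SD in the VAAM mice, against -0.876, 0.207 and 0.823 SD in the water mice. In BAT it was at -0.104, 1.49 and 2.04 SD in the VAAM mice, against -1.72, -0.136 and 1.98 SD in the water mice. The groups overlapped in each tissue, with the highest VAAM mouse over all water mice. Its difference was 1.20 ± 0.581 SD in liver, 0.610 ± 0.547 SD in WAT and 1.29 ± 0.587 SD in BAT, and the number of VAAM mice above the water median was 5, 5 and 7 of 7. A second probe set, 1418322_at, differed by 1.44 ± 0.60 SD, 0.869 ± 0.559 SD and 1.90 ± 0.644 SD in the same order, and it was at 0.90, 1.78 and 2.99 SD in the VAAM mice, against -1.27, -0.506 and 1.94 SD in the water mice in BAT. The third, 1430598_at, differed by 1.07 ± 0.571 SD, 0.977 ± 0.566 SD and 1.39 ± 0.595 SD. The exception was 1430847_a_at, at -0.734 ± 0.552 SD in liver, 0.149 ± 0.535 SD in WAT and -0.0138 ± 0.534 SD in BAT. After quantile normalization the difference of 1449037_at was -0.598 SD in liver, -0.372 SD in WAT and -0.160 SD in BAT, where the median gene was at -0.318, -0.473 and -0.208 SD.

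*Creb1*, the constitutive factor, was represented by 6 probe sets, whose r with each other between mice ran from -0.29 to 0.67 in liver, -0.22 to 0.82 in WAT and -0.29 to 0.41 in BAT. Its highest probe set in liver and WAT, 1452901_at, differed by 1.01 ± 0.567 SD in liver and -0.661 ± 0.549 SD in WAT, and the highest in BAT, 1428755_at, by 0.595 ± 0.546 SD. The liver values of 1452901_at were -0.570, 1.18 and 2.42 SD in the VAAM mice, against -1.16, 0.377 and 0.689 SD in the water mice, and 5 of 7 VAAM mice exceeded the water median. Over all 6 the differences ran from -0.343 to 1.01 SD in liver, -0.661 to 0.511 SD in WAT and -0.172 to 0.595 SD in BAT. *Crtc2*, the coactivator that SIK phosphorylation keeps out of the nucleus, differed by 0.695 ± 0.550 SD in liver, 0.192 ± 0.536 SD in WAT and 0.726 ± 0.552 SD in BAT. Its 2 probe sets had opposite signs in WAT and BAT, where 1424660_s_at and 1429373_x_at differed by -0.399 ± 0.540 SD and 0.192 ± 0.536 SD in WAT, and by 0.726 ± 0.552 SD and -0.457 ± 0.541 SD in BAT. The liver and BAT differences of *Creb1* and *Crtc2* turned negative after quantile normalization.

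*Dusp1*, which removes phosphate from p38, JNK and ERK kinases, was, like *Sik1*, over 1 SD higher in the VAAM mice in each tissue, on its only probe set, 1448830_at, though in WAT by 0.0311 SD alone after quantile normalization. In liver it was at 0.280, 1.38 and 3.52 SD in the VAAM mice, against -1.12, -0.0159 and 1.64 SD in the water mice. In WAT it was at 0.292, 1.76 and 2.88 SD in the VAAM mice, against -1.16, -0.338 and 1.58 SD in the water mice. In BAT it was at -0.275, 0.816 and 2.54 SD in the VAAM mice, against -0.952, -0.0140 and 1.35 SD in the water mice. All 7 VAAM mice were above the water median in liver and WAT and 6 of 7 in BAT, and the groups overlapped in each tissue. The difference was 1.63 ± 0.617 SD in liver, 1.51 ± 0.606 SD in WAT and 1.13 ± 0.576 SD in BAT. It stayed at 1.62 SD in liver and 1.13 SD in BAT after quantile normalization but was 0.0311 SD in WAT, where the median gene was at -0.473 SD. Without both WAT arrays numbered 1 it was 1.63 ± 0.667 SD. *Dusp1* also varied more between mice than nearly all other probe sets: its SD within groups stood at the 99.6 percentile in liver, the 92.6 percentile in WAT and the 98.6 percentile in BAT.

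**Figure D1:**
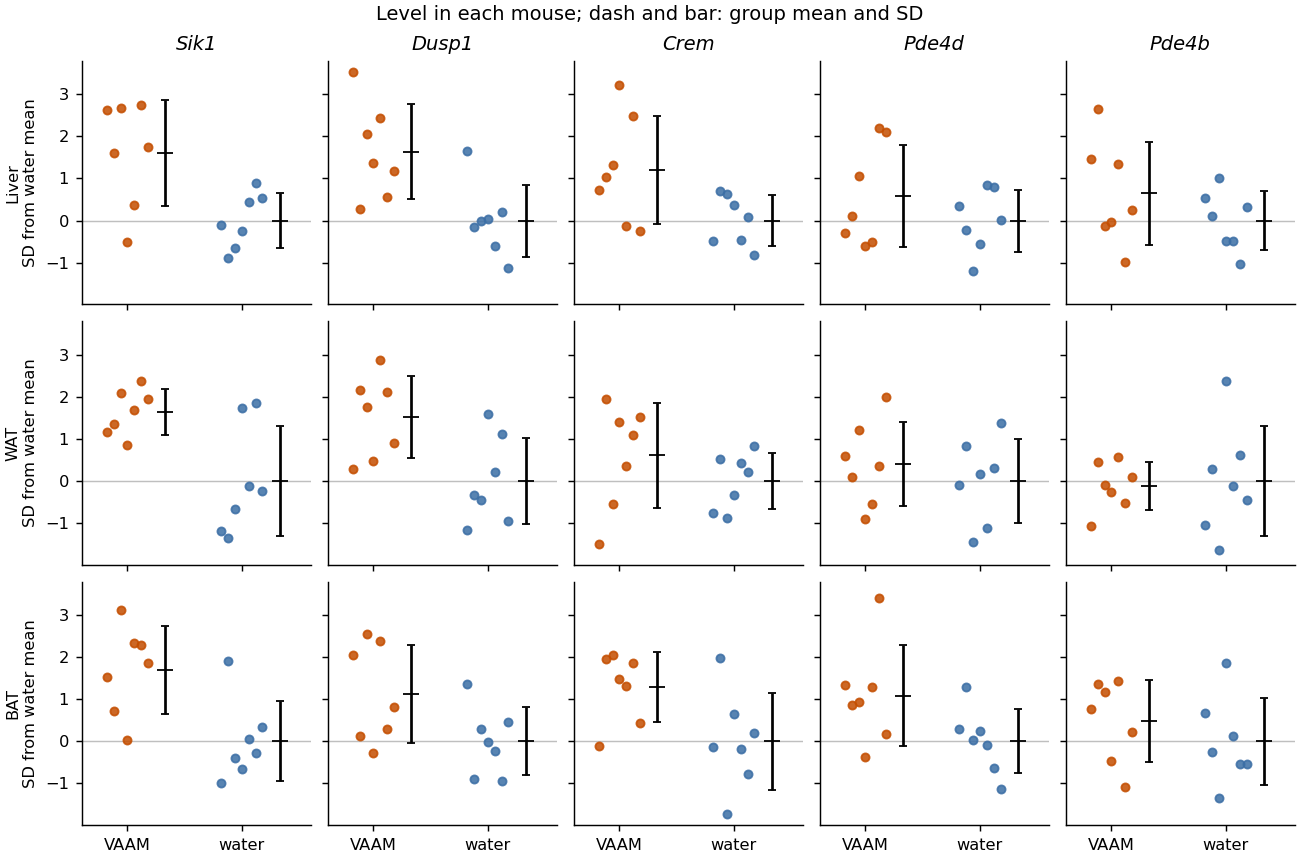
Level of 5 genes in each mouse (y axis, SD from the mean of the water mice of that tissue) for VAAM mice (left) and water mice (right) in liver, WAT and BAT. Each point is 1 mouse, and the dash with its bar is the group mean with its SD (n = 7). *Sik1* and *Dusp1* have their VAAM means between 1.13 and 1.69 SD in every tissue in these deposited values (-0.213 and 0.0311 SD in WAT after quantile normalization), while the VAAM mean of *Pde4b* in WAT is -0.122 SD.

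The phosphodiesterases differed less. *Pde3b*, the isoform through which insulin lowers cAMP in adipocytes, was at 0.142 ± 0.535 SD in liver, -0.131 ± 0.535 SD in WAT and 0.239 ± 0.536 SD in BAT. In WAT the *Pde3b* values were -2.49, -0.138 and 1.34 SD in the VAAM mice, against -1.03, 0.105 and 1.30 SD in the water mice, and the lowest was the VAAM array numbered 1, without which the difference was 0.373 ± 0.561 SD. *Pde4d*, a cAMP-specific isoform that PKA phosphorylates and activates, was at 0.583 ± 0.546 SD, 0.394 ± 0.540 SD and 1.09 ± 0.573 SD. In BAT the *Pde4d* values were -0.383, 0.926 and 3.40 SD in the VAAM mice, against -1.12, 0.0403 and 1.28 SD in the water mice, so 6 of 7 VAAM mice exceeded the water median, and quantile normalization left 0.218 ± 0.536 SD of that difference. Its other probe set, 1459311_at, was at 0.528 ± 0.544 SD, 0.585 ± 0.546 SD and -0.263 ± 0.537 SD, and in BAT it ran against the first between mice (r = -0.81). *Pde4b*, whose short forms are induced by cAMP, was at 0.649 ± 0.548 SD, -0.122 ± 0.535 SD and 0.485 ± 0.542 SD on its highest probe set, 1422474_at. In liver the *Pde4b* values were -0.987, 0.253 and 2.65 SD in the VAAM mice, against -1.02, 0.107 and 1.02 SD in the water mice, and the groups overlapped, with the highest VAAM mouse over all water mice. The neighbouring probe set 1422473_at followed it closely between mice (r = 0.94 in liver, 0.96 in WAT and 0.88 in BAT) and differed by 0.817 ± 0.556 SD, -0.0122 ± 0.534 SD and 0.618 ± 0.547 SD. The other 4 *Pde4b* probe sets lay between -0.669 and 1.18 SD in liver, -0.264 and 0.528 SD in WAT and -0.539 and 0.476 SD in BAT.

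**Figure D2:**
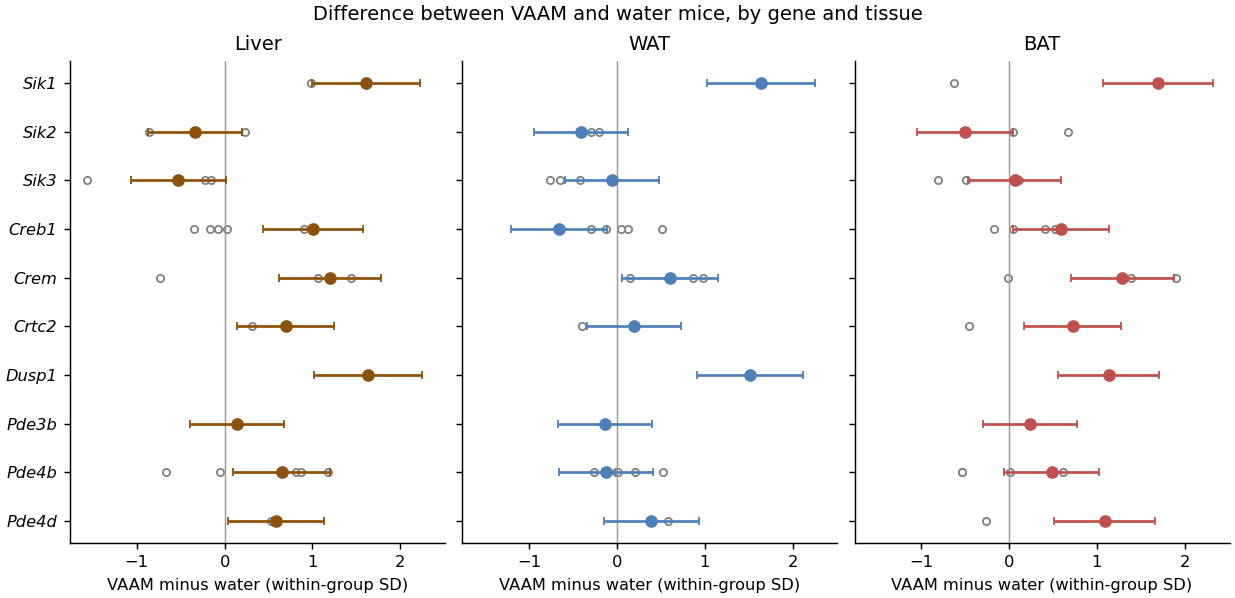
Difference between VAAM and water mice (x axis, VAAM minus water in within-group SD) for the 10 genes (y axis) in liver, WAT and BAT. Filled points with bars are the probe set with the highest level in the tissue ± SE (n = 7 each), and open points are the other probe sets. *Sik1* and *Dusp1* lie above 1 SD in each tissue in these deposited values, against -0.213 and 0.0311 SD in WAT after quantile normalization, and the open *Sik1* point in BAT lies at -0.624 SD.

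Counted over the 10 genes, 8 were higher and 2 lower in the VAAM mice in liver (median 0.672 SD), 5 and 5 in WAT (0.0692 SD) and 9 and 1 in BAT (0.660 SD), beside medians of -0.0497, 0.00474 and 0.0225 SD over all 18193 genes. After quantile normalization 3 were higher in liver, 1 in WAT and 4 in BAT, where 11052, 1765 and 4987 of all 45037 probe sets were higher. That step put the median gene at -0.318, -0.473 and -0.208 SD. Against that median the 10 genes lay from -0.595 to 1.94 SD in liver and from 0.0028 to 0.504 SD in WAT. In BAT all but *Creb1* (-0.349 SD) lay above it. The WAT count in the deposited values rested on 1 array: without the VAAM array numbered 1 it was 9 of 10. All 7 VAAM mice were above the water median on 2 of 31 probe sets in liver (4.94% of all probe sets), 3 in WAT (2.72%) and 4 in BAT (2.75%). No VAAM mouse was above it on 1 probe set in liver (5.67%), 0 in WAT (2.94%) and 1 in BAT (3.52%), and 0 of 31 probe sets had groups that did not overlap (0.155% in liver, 0.0488% in WAT and 0.0955% in BAT). A difference over 1 SD was seen on 7 of 31 probe sets in liver (6.27%), 3 in WAT (3.13%) and 6 in BAT (3.79%), and one under -1 SD on 1 in liver (7.84%), 0 in WAT (3.74%) and 0 in BAT (5.1%). Only *Sik1* 1419766_at and *Dusp1* were over 1 SD in all 3 tissues among the 31, as were 18 of 45037 probe sets (0.04%). These shares describe the contrast by which the genes were chosen.

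Across all 45037 probe sets, limma called none in liver, WAT or BAT (0.0% each; smallest Benjamini-Hochberg adjusted p 0.148, 0.9998 and 0.469), and 1878, 744 and 975 were higher and 2218, 948 and 1321 lower at an unadjusted p under 0.05 (4.17%, 1.65% and 2.16% higher, 4.92%, 2.1% and 2.93% lower). Of the 31 member probe sets 5, 3 and 4 were higher and 1, 0 and 0 lower at that p, which describes the contrast they were chosen from. The rank products that the study's methods name called 1228 probe sets higher and 645 lower in liver (2.73% and 1.43%), 895 and 663 in WAT (1.99% and 1.47%) and 966 and 1013 in BAT (2.14% and 2.25%). Among the members they called *Sik1* 1419766_at and *Dusp1* higher in all 3 tissues. They also called 3 *Pde4b* probe sets higher in liver (1422473_at, 1422474_at and 1442700_at, the last with a difference of -0.0568 ± 0.535 SD), *Sik1* 1459601_at higher in WAT and lower in BAT, and *Pde4d* higher in BAT. The 5 member calls in liver were 3 without VAAM array 1, 2 or 5 and 3 after quantile normalization, the 3 in WAT were 0 after quantile normalization, and the 3 higher in BAT were 2. The lower call of *Sik1* 1459601_at in BAT was lost without water array 1, 3, 5 or 7 and after quantile normalization. Rank products called 134 probe sets in liver, 76 in WAT and 167 in BAT in both directions at once, none of them a member. Rank products order unscaled differences, and the SD of the members they called was large: *Sik1* stood at the 95.3, 89.7 and 97.9 percentile of all probe sets in liver, WAT and BAT, and *Pde4b* at the 98.5 percentile in liver. With every probe set at unit SD they called 173 higher in liver, 35 in WAT and 73 in BAT, and 0 members in each.

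The other genes of the pathway, 66 of 69 of which were measured, were grouped by role, and quantile normalization moved most counts down with the median of all genes. Of the G proteins that act on adenylyl cyclase, 4 of 4 were higher in the VAAM mice in liver (median 1.11 SD), 1 in WAT (-0.470 SD) and 3 in BAT (0.402 SD), against 2, 0 and 1 after quantile normalization. Of the adenylyl cyclases, 2 of 9 were higher in the VAAM mice in liver (median -0.296 SD), 5 in WAT (0.0109 SD) and 5 in BAT (0.230 SD), against 4, 1 and 1 after quantile normalization. Of the PKA subunits and inhibitors, 7 of 9 were higher in the VAAM mice in liver (median 0.475 SD), 3 in WAT (-0.10 SD) and 4 in BAT (-0.118 SD), against 4, 1 and 3 after quantile normalization. The G protein gene *Gnai3*, an inhibitory alpha subunit, differed by 1.76 ± 0.629 SD in liver, the highest value of the pathway there, and every VAAM mouse exceeded the water median, but quantile normalization turned it to -0.118 SD. *Gnas*, the stimulatory alpha subunit, had the lowest value in WAT, -1.74 ± 0.628 SD, at -3.05, -1.90 and -0.384 SD in VAAM mice, against -1.26, -0.287 and 1.63 SD in water mice. Next to it was the cyclase *Adcy9* with -1.54 ± 0.609 SD, and no VAAM mouse was above the water median for either gene. After quantile normalization *Gnas* was at -0.170 SD and *Adcy9* at -0.416 SD, both above the median gene at -0.473 SD.

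Downstream of cAMP, the Epac exchange factors were represented by 1 gene, *Rapgef3*, which was lower in each tissue (-1.13, -0.350 and -0.344 SD in liver, WAT and BAT). After quantile normalization it was at -1.83, -0.338 and -0.186 SD, where the median gene was at -0.318, -0.473 and -0.208 SD. It was thus below the median gene in liver alone. Of the other phosphodiesterases that hydrolyse cAMP, 3 of 8 were higher in the VAAM mice in liver (median -0.328 SD), 3 in WAT (-0.290 SD) and 3 in BAT (-0.396 SD), against 3, 0 and 1 after quantile normalization, and *Pde3a*, the sister gene of *Pde3b*, had the lowest value in BAT, -1.03 ± 0.569 SD (-0.208 SD after quantile normalization, as the median gene). Of the other CREB family factors and coactivators, 3 of 4 were higher in the VAAM mice in liver (median 0.395 SD), 3 in WAT (0.0579 SD) and 3 in BAT (0.810 SD), against 0, 0 and 0 after quantile normalization. Of the genes of the LKB1 complex, which activates the SIK kinases, and the class IIa deacetylases, 6 of 7 were higher in the VAAM mice in liver (median 0.380 SD), 2 in WAT (-0.240 SD) and 3 in BAT (-0.108 SD), against 3, 0 and 0 after quantile normalization. The deacetylase gene *Hdac7* was at -0.753 ± 0.553 SD in BAT (-0.101 SD after quantile normalization).

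Of the other MAP kinase phosphatases, the family of *Dusp1*, 4 of 9 were higher in the VAAM mice in liver (median -0.0897 SD), 5 in WAT (0.0797 SD) and 8 in BAT (0.691 SD), against 3, 0 and 6 after quantile normalization. *Dusp6*, an ERK phosphatase, was at -0.244, 2.38 and 3.18 SD in VAAM mice, against -1.04, -0.0814 and 1.48 SD in water mice in BAT, a difference of 2.03 ± 0.658 SD (1.27 SD after quantile normalization) in which 6 of 7 VAAM mice exceeded the water median. In liver the lowest value of the pathway was that of *Dusp9*, -1.52 ± 0.607 SD (-0.981 SD after quantile normalization), and in WAT the highest was that of *Dusp8*, 1.25 ± 0.584 SD (-0.422 SD after quantile normalization). Of the genes known to be induced by cAMP, 10 of 15 were higher in the VAAM mice in liver (median 0.818 SD), 12 in WAT (0.339 SD) and 9 in BAT (0.417 SD), against 8, 1 and 7 after quantile normalization. In liver the immediate early gene *Fos* differed by 1.55 ± 0.610 SD (1.53 SD after quantile normalization), while *Ucp1*, the brown fat uncoupler, was at -1.38 ± 0.595 SD (-0.0138 SD after quantile normalization) at a level of 6.39, below the liver median of 6.73. In WAT the nuclear receptor gene *Nr4a3* was at 0.994 ± 0.567 SD (-0.344 SD after quantile normalization). In BAT *Irs2*, the insulin receptor substrate that CREB is known to induce in liver, was at 1.02, 1.93 and 3.56 SD in VAAM mice, against -1.23, -0.508 and 1.99 SD in water mice, a difference of 2.13 ± 0.669 SD (2.08 SD after quantile normalization) in which all 7 VAAM mice exceeded the water median. Over all lists 39 of 66 genes were higher in liver (median 0.389 SD), 34 in WAT (0.00697 SD) and 38 in BAT (0.127 SD), against 27, 3 and 19 after quantile normalization. Limma called 0 of the 66 in each tissue after adjustment. At an unadjusted p under 0.05 it had 6 higher and 3 lower in liver (4.17% and 4.92% of all probe sets), 1 and 2 in WAT (1.65% and 2.1%) and 7 and 0 in BAT (2.16% and 2.93%). Rank products called 9 higher and 1 lower in liver (2.73% and 1.43% of all probe sets) and 2 and 0 in WAT (1.99% and 1.47%). In BAT they called 15 and 2 (2.14% and 2.25%). Of those higher, 8, 1 and 9 were among the 15 genes known to be induced by cAMP. Limma had 3, 0 and 2 of these 15 higher at an unadjusted p under 0.05. Rank products order unscaled differences, and their calls at unit SD were not counted for these lists. The 2 called lower in BAT, *Fos* and *Pkia*, a PKA inhibitor gene, were also called higher there, with differences of -0.0766 and 0.135 SD, so they have no direction.

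In BAT, 3 of 4 adipocyte markers also stood higher in the VAAM mice (1 of 4 after quantile normalization): the mean of the 4, of 6 listed, was 0.720, 0.937 and 1.77 SD in the lowest, median and highest VAAM mouse, against -0.516, -0.138 and 0.886 SD in water mice. Their summed level was 45.11 to 45.15 in VAAM arrays and 45.10 to 45.13 in water arrays. In liver all 6 macrophage markers were higher, also after quantile normalization (median difference 0.668 SD, summed level 52.44 to 52.49 in VAAM arrays and 52.40 to 52.46 in water arrays), and in WAT 0 of 4 endothelial markers were higher (median -0.732 SD, summed level 34.19 in VAAM arrays and 34.19 to 34.20 in water arrays). Skeletal muscle markers in liver, where their summed level was 51.59 in both groups, had a median difference of -0.702 SD with 0 of 8 higher (0 of 8 after quantile normalization), and their mean ran from -1.24 to -0.357 SD in VAAM arrays and from -0.293 to 0.404 SD in water arrays, without overlap. These markers had levels of only 6.12 to 6.80 in liver, around and below the liver median of 6.73. How often the mean of other such sets of genes lacks overlap was not computed. Endothelial markers in liver had 3 of 4 higher (median 0.930 SD, also 3 after quantile normalization), with a summed level of 31.67 in both groups. Skeletal muscle markers in BAT were higher in 8 of 8 (median 0.146 SD, also 8 after quantile normalization). Between mice, with group means removed, the liver muscle markers had r = -0.12 with *Sik1* and 0.38 with *Dusp1*, and the liver endothelial markers -0.37 and 0.33. In the same order the liver macrophage markers had r = -0.53 and -0.01, and the hepatocyte markers 0.13 and 0.63. Even the epididymis markers had r = 0.75 and 0.10 in liver. The BAT muscle markers had r = -0.20 with *Sik1*, 0.52 with *Dusp1* and -0.63 with *Crem*. The BAT adipocyte markers had r = 0.01 with *Sik1*, -0.24 with *Dusp1* and -0.58 with *Crem*. The part of these cell types in the differences above was not tested.

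The level of each gene by tissue was read on its brightest probe set over the 3 tissues. DFW shrinks the deviations between the arrays of a tissue, so the size of a gap between tissues cannot be set against that of a gap between groups. In liver, WAT and BAT the water mean was 8.29, 11.48 and 11.72 for *Sik2*, 10.59, 12.02 and 12.35 for *Pde3b*, and 7.24, 7.70 and 10.39 for *Pde4d*, so these 3 genes were highest in BAT, as was *Sik3* (8.88, 9.34 and 9.35). The levels of *Sik1* (6.97, 7.69 and 7.40), *Creb1* (8.34, 9.52 and 8.30), *Dusp1* (8.51, 10.60 and 9.78) and *Pde4b* (7.47, 8.25 and 6.93) were highest in WAT. *Crem* (8.09, 7.91 and 7.30) and *Crtc2* (7.33, 7.26 and 7.17) were highest in liver. The SD over the 7 water mice was at most 0.0104, reached by *Dusp1* in liver, and no 2 tissues overlapped for any of these genes, but of all probe sets 99.7% did not overlap between BAT and WAT, 99.8% between liver and WAT and 99.9% between liver and BAT. The median of each array was nearly constant within a tissue and differed between tissues (6.73 in liver, 6.91 in WAT and 6.77 in BAT in the water arrays), so a shift of the whole scale between tissues cannot be told apart from a gap as small as that of *Sik3* between BAT and WAT. The order also depended on the probe set: all probe sets of *Sik1*, *Sik2* and *Pde4d* had the same highest tissue, but 2 of 4 did for *Sik3* and *Crem*, 3 of 6 for *Creb1*, 1 of 2 for *Crtc2* and 4 of 6 for *Pde4b*.

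**Figure D3:**
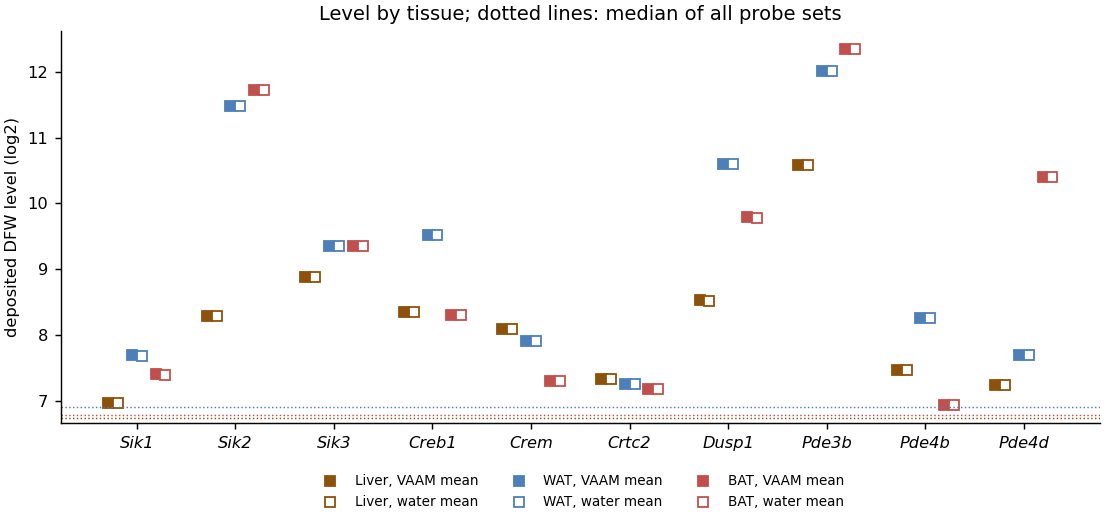
Level of the 10 genes (x axis) in the deposited DFW values (y axis, log2) in liver, WAT and BAT, as the mean of 7 VAAM mice (filled, left) and of 7 water mice (open, right). Dotted lines are the medians of all probe sets. *Sik2*, *Pde3b* and *Pde4d* stand at 11.72, 12.35 and 10.39 in BAT water mice. The 2 groups coincide at this scale, in values in which DFW shrinks the deviations between the arrays of a tissue.

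How the genes varied between mice of 1 group was not used to choose them, and it was tested for all 45 pairs in each tissue, with the group means removed (n = 14 mice, two-sided permutation within groups, adjusted over all pairs in the 3 tissues). None of the pairs passed after adjustment, by Pearson's r or by Spearman's rho, and 14 had an unadjusted permutation p under 0.05. After quantile normalization 45 pairs passed in WAT, 24 in BAT and 0 in liver. All pairs of WAT then passed, also some negative before, such as *Sik3* and *Pde4d* (r = -0.43 before and 0.98 after). That step therefore singles out no pair in WAT. In the deposited values the median r was -0.01 in liver, 0.26 in WAT and 0.10 in BAT, and 22, 36 and 28 of 45 pairs were positive.

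The closest pair by rank was *Dusp1* and *Pde4b* in WAT, with Pearson's r = 0.75 (permutation p = 0.00167, adjusted p = 0.113) and Spearman's rho = 0.80 (permutation p = 0.00107, adjusted p = 0.144). Pearson's r was 0.68 within the VAAM mice, 0.84 within the water mice and 0.59 without the 2 mice farthest from the median of *Dusp1*. Of all genes, 0.775% had an r with *Dusp1* as strong or stronger, counting both positive and negative r. Without both arrays numbered 1 the r of *Dusp1* and *Pde4b* was 0.68 (permutation p = 0.0144, adjusted p = 0.646). After quantile normalization of all arrays, where all WAT pairs passed, r was 0.97. The epididymis markers had r = -0.50 with *Dusp1*, -0.37 with *Pde4b* and -0.54 with *Sik1* in the deposited WAT values. In the same order the macrophage markers had r = 0.62, 0.35 and 0.36, the adipocyte markers 0.57, 0.49 and 0.43, and the hepatocyte markers 0.67, 0.41 and 0.65. The muscle markers had 0.29, 0.16 and 0.66, and the lymphocyte and neutrophil markers -0.07, -0.14 and 0.01. The part of these lists was not tested. *Sik1* and *Dusp1*, both over 1 SD in every tissue, had in WAT Pearson's r = 0.73 (permutation p = 0.00463, adjusted p = 0.208) and Spearman's rho = 0.68 (permutation p = 0.00995, adjusted p = 0.441). That r was 0.54 without the 2 farthest mice and 0.92 after quantile normalization. For the same pair it was -0.01 in liver and 0.22 in BAT in the deposited values. Differences between tissues in r were not tested.

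*Sik2* and *Pde3b* in WAT had Pearson's r = 0.87 (permutation p = 0.00123, adjusted p = 0.113) and Spearman's rho = 0.58 (permutation p = 0.0343, adjusted p = 0.563). Both had their lowest value in the VAAM array numbered 1, and without both arrays of that number r was 0.55 (permutation p = 0.0786, adjusted p = 0.704). After quantile normalization of all arrays r was 0.94. Over the same 14 arrays the mean of the epididymis markers had r = -0.84 with *Sik2* and -0.78 with *Pde3b*, the adipocyte markers 0.86 and 0.80, and the endothelial markers 0.84 and 0.88, and their part in the pair was not tested. Of all genes, 5.47% had an r with *Sik2* at least as strong as that of *Pde3b*, counting both positive and negative r. In BAT the lowest r was that of *Sik2* and *Dusp1*, with Pearson's r = -0.76 (permutation p = 0.00801, adjusted p = 0.270) and Spearman's rho = -0.76 (permutation p = 0.010, adjusted p = 0.441). There r was -0.89 within the VAAM mice and -0.36 within the water mice, and -0.61 without the 2 farthest mice, and it was -0.27 after quantile normalization. The skeletal muscle markers had r = 0.52 with *Dusp1* and -0.20 with *Sik2* there. In liver the strongest pair was *Sik1* and *Pde4d*, with Pearson's r = 0.64 (permutation p = 0.0370, adjusted p = 0.428) and Spearman's rho = 0.67 (permutation p = 0.0190, adjusted p = 0.441), r = 0.48 without the 2 farthest mice and r = 0.20 after quantile normalization.

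**Figure D4:**
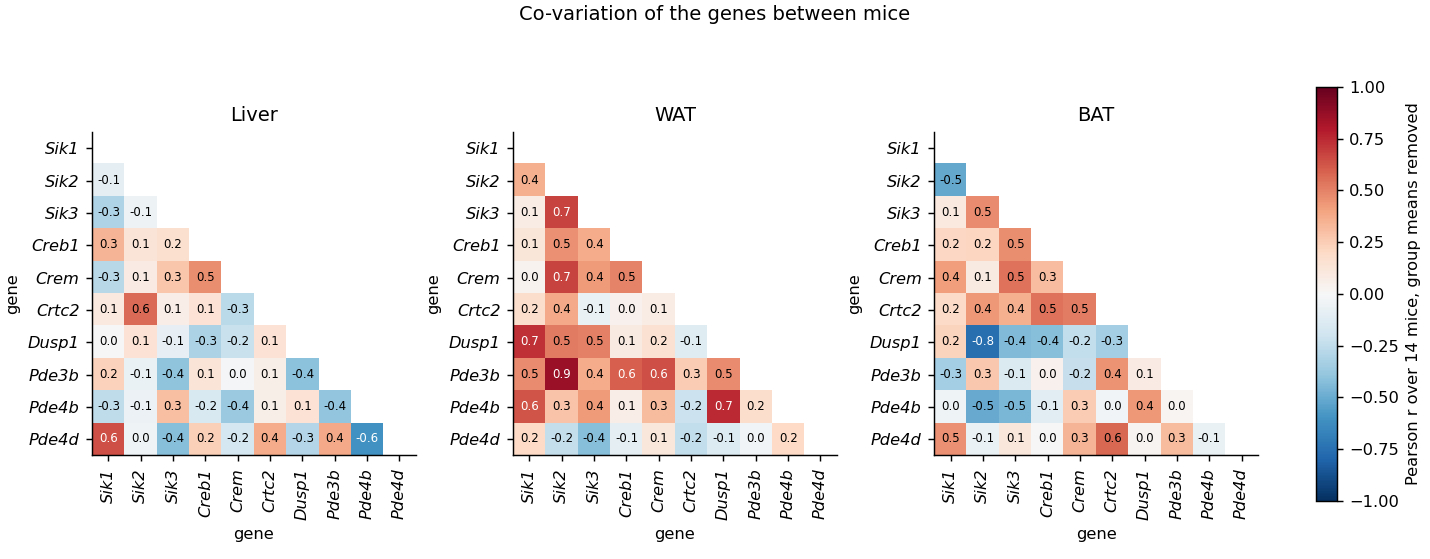
Pearson's r between the genes over 14 mice with group means removed, in liver, WAT and BAT (both axes list the genes; red is positive and blue negative). WAT holds more positive pairs (36 of 45) than liver (22) and BAT (28).

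**Figure D5:**
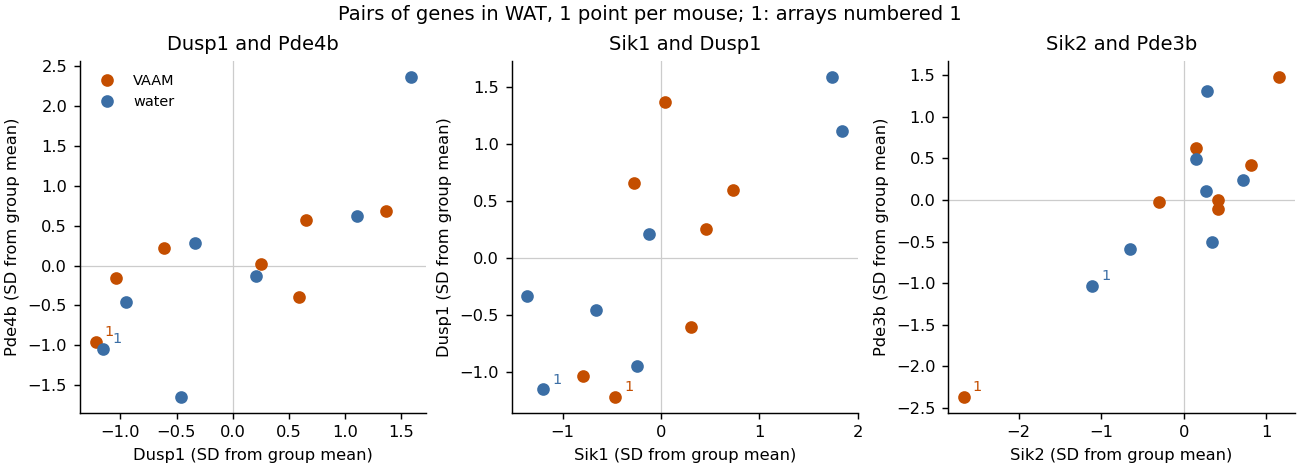
Levels of 3 pairs of genes in WAT (both axes in SD from the group mean), 1 point per mouse, VAAM in orange and water in blue, with the arrays numbered 1 marked. The VAAM array numbered 1 lies at the lower left in the *Sik2* and *Pde3b* panel, apart from the other points.

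The arrays carry numbers from 1 to 7 in each group and tissue, and the labels do not say whether a number marks a mouse. Over all probe sets, the array of the same number was the most alike of its group in 7 of 14 arrays between liver and WAT, 10 of 14 between liver and BAT and 11 of 14 between WAT and BAT. In that order the median r was 0.08, 0.10 and 0.14 for the same number, against -0.02, -0.01 and -0.03 for other numbers. If numbers mark mice, *Dusp1* in liver can be set against *Dusp1* in BAT (Pearson's r = 0.65, permutation p = 0.0215, adjusted p = 0.254; Spearman's rho = 0.60, permutation p = 0.0439; r = 0.50 without the 2 farthest), and *Pde3b* in liver with *Pde3b* in WAT (Pearson's r = 0.65, permutation p = 0.0194, adjusted p = 0.254; Spearman's rho = 0.68, permutation p = 0.0129; r = 0.54 without the 2 farthest). *Sik1* had r = 0.44 between liver and WAT (permutation p = 0.0442, adjusted p = 0.265; Spearman's rho = 0.52, permutation p = 0.0389; r = 0.45 without the 2 farthest). *Sik3* had r = 0.67 between WAT and BAT (permutation p = 0.0339, adjusted p = 0.254; Spearman's rho = 0.50, permutation p = 0.0988; r = 0.24 without the 2 farthest), and *Pde4b* r = 0.61 (permutation p = 0.0272, adjusted p = 0.254; Spearman's rho = 0.55, permutation p = 0.0438; r = 0.14 without the 2 farthest). Pearson's r of both thus fell without the 2 farthest mice, and whether it rested on them was not tested. Of 30 such values over the 10 genes and 3 pairs of tissues, 21 were positive, 5 had an unadjusted p under 0.05 and 0 passed after adjustment.

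The genes most like each member over the 42 arrays, with group means removed and every tissue scaled to unit SD, are given as a description. For *Dusp1* they were *E030030I06Rik*, *Csrnp1* and *Utp23* (r = 0.66, 0.65 and 0.64), of which *Csrnp1* encodes a cysteine- and serine-rich nuclear protein, and for *Pde4b* they were *Adamts1*, *Nrarp* and *Apold1* (r = 0.64, 0.63 and 0.63), of which *Apold1* is known as an early response gene of endothelium. For *Sik1* they were *Acot12*, *Sag* and *Cd163l1* (r = 0.71, 0.68 and 0.66), for *Sik2* *Pcmtd2*, *Aldh2* and *Pink1* (r = 0.85, 0.80 and 0.79), and for *Sik3* *Bptf*, *Gm4274* and *Map4k4* (r = 0.69, 0.67 and 0.67). *Aldh2* and *Pink1* encode a mitochondrial aldehyde dehydrogenase and a mitochondrial kinase. For *Creb1* they were *Pdpr*, *Jcad* and *Zc3h18* (r = 0.71, 0.68 and 0.67), for *Crem* *Acvr1c*, *Abhd5* and *Steap4* (r = 0.68, 0.68 and 0.64), and for *Crtc2* *Srsf4*, *Shprh* and *Mdm4* (r = 0.70, 0.68 and 0.67). *Abhd5*, next to *Crem*, encodes the coactivator of the triglyceride lipase ATGL. For *Pde3b* they were *Ppargc1b*, *Tmem200c* and *Mknk2* (r = 0.72, 0.69 and 0.68), of which *Ppargc1b* is a coactivator of mitochondrial genes, and for *Pde4d* *Nr1i3*, *Lrrc4b* and *Bpifb5* (r = 0.63, 0.59 and 0.57). The number of genes with r over 0.5 ran from 22 for *Pde4d* to 564 for *Sik2*.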

How the data were processed

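Total RNA of liver, WAT and BAT was hybridised to Affymetrix mouse genome arrays, 1 array per mouse and tissue, with 7 mice given VAAM and 7 given water. The authors computed distribution free weighted (DFW) summaries in R 2.7.2 (processing notes of the submitters) and deposited 1 value per probe set on a log scale, whose base is not given in the sources used here and was taken as log2. DFW compresses small deviations, so the deposited values give no usable fold changes. Arrays of mice that received another amino acid mixture were not used here.

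The 64 control probe sets were left out, which left 45037, of which 34945 name 1 gene, 932 several and 9160 none in the platform annotation. Differences were divided by the pooled SD within groups. Limma 3.58.1 (R 4.3.3) with Benjamini-Hochberg adjustment at 0.05 and rank products (Python 3.11.15, numpy 2.4.6; 50 permutations, and 20 where an array was left out), the test that the methods of the study name, were run on all probe sets within each tissue, and both were tested on simulated data. The data simulated for rank products gave every probe set the same SD, unlike the deposited values. That test therefore cannot speak for calls that follow a large SD. The correlation tests between mice used 100000 permutations within groups, and the smallest p they can give is 1e-05. The members and all lists were chosen with earlier results of these data known, and no list supports another. Named genes are the members, the 2 pathway genes with the highest and the 2 with the lowest difference in each tissue and the 3 genes most like each member over 42 arrays. The alternatives were quantile normalization, a filter on low levels, array weights, a trended and robust prior, group medians, Spearman's rho, each probe set at unit SD, the mean of all probe sets of a gene, the replicate number as a block, and each array left out. Leaving out both WAT arrays numbered 1, setting levels against the tissue median, and quantile normalization of the lists were added after the data had been seen. Replicate numbers are those of the labels, which do not say whether a number marks 1 mouse in the 3 tissues. The number of arrays limits the precision, and no sequencing depth applies.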

Additional observations from a re-analysis of the deposited data

Results flagged for a closer look

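In the VAAM group of WAT, the array numbered 1 lay far below the other 6 for *Sik2* and for *Pde3b*: the gap to the nearest array was 0.621 of the range of the group for *Sik2* and 0.586 of it for *Pde3b*. Of 60 groups checked over the 10 genes, 2 held such an array, and chance alone gives about 1 in 20. That array also had the highest level of epididymis markers, 2.56 SD above the mean of the water arrays.

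The second *Sik1* probe set, 1459601_at, differed in direction between tissues, since every VAAM mouse was above the water median in liver and WAT and none was in BAT. Its difference was 1.605 SD higher in liver than in BAT and 2.259 SD higher in WAT than in BAT. The difference between tissues was not tested.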

How the results depend on the processing

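Limma called 0 probe sets in each tissue, and in liver 1 after quantile normalization, 1 with the replicate number as a block and 0 to 5 when an array was left out (5 without water array 2 and 1 without VAAM array 5). Rank products called 1873 probe sets in liver, 1558 in WAT and 1979 in BAT, but 309, 60 and 111 with each probe set at unit SD, 1078, 850 and 859 after quantile normalization, and 1494 to 1875, 1130 to 1751 and 1545 to 2022 when an array was left out. Of the 10 genes, 8, 5 and 9 were higher in the VAAM mice in liver, WAT and BAT, against 3, 1 and 4 after quantile normalization, 7 to 8, 4 to 9 and 8 to 9 when an array was left out, and the cause was not tested. Quantile normalization moved the median difference of all genes to -0.318 SD in liver, -0.473 SD in WAT and -0.208 SD in BAT. The pairs that co-varied after adjustment numbered 0 in each tissue, also when an array was left out, but 45 in WAT (all of its pairs) and 24 in BAT after quantile normalization, and 1 in WAT with the mean of all probe sets. The mean of all probe sets left 1 gene, in place of 2, at its highest level in liver. Of 180, 190 and 180 single differences recomputed in liver, WAT and BAT, 176, 188 and 177 moved by less than 1 SD and 8, 21 and 12 changed sign. Between the VAAM and water arrays of the same number, correlations over 0.1 were found in 2, 3 and 2 of 7 pairs. The highest were in WAT, at 0.48 for number 1 and 0.31 for number 6. The same number was the best match in 1, 3 and 3 of 7, and whether the numbers pair these arrays was not tested. With the number as a block, limma called 0 probe sets in WAT and BAT, and the only single difference that moved by over 1 SD was that of *Crtc2* in BAT, 1.85 SD.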
